A study of Mus musculus with 4 samples.

Results

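The immunity-related GTPases (IRG) described here are 8 mouse genes, Irgm1, Irgm2, Igtp, Iigp1, Tgtp1, Tgtp2, Gm4841 and Gm4951, taken by symbol from a table of 17335 genes. They were selected on this contrast, because their levels in it were already known to differ, so the values below are a description and no test was made of them. All 8 passed the filter of 0.1 FPKM in at least 1 library, as did 15839 genes of the table. Tgtp1 and Tgtp2 are near-identical copies and were also summed, which leaves 7 separate measurements.

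RNA came from gonadal white adipose tissue (gWAT) of female mice fed a high-fat diet (HFD), for 18 weeks by the series' own text. Mice of the fl/fl group carry a Dnmt1 gene flanked by loxP sites and have intact Dnmt1, which encodes the maintenance DNA methyltransferase. AD1KO mice carry the same floxed gene plus a Cre transgene under the adiponectin promoter, which is active in adipocytes, and the control animals were littermates. Ages of the mice are not stated in the labels. Each group is 1 library, made from a pool of RNA of 4 animals, so no spread between animals can be given. Dnmt1 itself was at 6.99 FPKM in fl/fl and 3.33 FPKM in AD1KO, or -1.07 as a log2 ratio (95% counting interval -1.27 to -0.87). The depot also holds immune and stromal cells, in which the adiponectin promoter is not known to be active.

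IRG proteins are large GTPases that cells make after exposure to interferon-gamma, and they are known for resistance to bacteria and parasites that live inside vacuoles of the host cell. The pathway runs from the ligand Ifng through its receptor and the kinases Jak1 and Jak2 to transcription factors, among them Irf1, that act on the promoters of IRG genes. Family members fall into a regulator class, named GMS after residues of its first GTP-binding motif, and an effector class, named GKS. GMS proteins sit on host membranes and hold GKS proteins inactive, while GKS proteins load onto the vacuole of the invader. In fat, interferon-gamma comes mainly from T cells and natural killer (NK) cells, and macrophages and adipocytes both respond to it.

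The codons of the first GTP-binding motif are shown because they split the family into these classes, and the capitals mark the codon that gives each class its name. They were read from the GENCODE transcripts of mm9, minus strand for Irgm1, Tgtp1 and Tgtp2 and plus strand for Irgm2 and Igtp.
Irgm1, chr11:48680263-48680286: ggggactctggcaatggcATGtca
Irgm2, chr11:58033197-58033220: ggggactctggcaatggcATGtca
Igtp, chr11:58019777-58019800: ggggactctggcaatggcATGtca
Tgtp1, chr11:48801169-48801192: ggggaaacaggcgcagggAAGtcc
Tgtp2, chr11:48873036-48873059: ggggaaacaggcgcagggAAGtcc
Irgm1, Irgm2 and Igtp carried ATG for methionine, at residue 89, 89 and 97 of the coding sequence, within 24 bases that are the same in all 3. Tgtp1 and Tgtp2 carried AAG for lysine at residue 69. Iigp1, Gm4841 and Gm4951 also carried AAG, at residues 82, 83 and 81. By this codon, 3 of the 8 genes are of the GMS class and 5 of the GKS class.

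Promoters are shown because GAS (gamma-activated sequence) and ISRE (interferon-stimulated response element) are the DNA elements through which interferons act. The 120 bases before the annotated start are printed with motif matches in capitals, from RefSeq windows of GRCm38.p6, which hold 5 of the 8 genes. Each stretch matched mm9 exactly once on its chromosome, and the mm9 position is given, on the minus strand for Irgm1, Tgtp1 and Tgtp2. Distances are from the RefSeq start. In GENCODE, Irgm1 and Tgtp1 begin further upstream, at chr11:48685185 and chr11:48807674, so their printed stretches lie inside the gene spans.
Irgm1, chr11:48684923-48685042: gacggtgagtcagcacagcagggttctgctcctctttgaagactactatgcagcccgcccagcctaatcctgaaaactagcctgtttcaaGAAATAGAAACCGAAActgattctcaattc
Tgtp1, chr11:48805749-48805868: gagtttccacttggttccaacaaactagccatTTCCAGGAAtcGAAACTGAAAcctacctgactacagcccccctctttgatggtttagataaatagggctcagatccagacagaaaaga
Tgtp2, chr11:48877715-48877834: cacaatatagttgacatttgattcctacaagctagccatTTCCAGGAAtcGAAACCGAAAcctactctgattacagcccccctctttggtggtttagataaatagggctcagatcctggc
Igtp, chr11:58012938-58013057: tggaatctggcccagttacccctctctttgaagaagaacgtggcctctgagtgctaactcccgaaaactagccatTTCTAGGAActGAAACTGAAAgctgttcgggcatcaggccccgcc
Irgm2, chr11:58028359-58028478: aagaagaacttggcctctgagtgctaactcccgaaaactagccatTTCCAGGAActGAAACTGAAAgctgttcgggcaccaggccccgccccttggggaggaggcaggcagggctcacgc
Motifs searched on both strands of the whole window, 250 bases before to 50 bases after the start, were TTCNNNGAA for GAS and GAAANNGAAA for ISRE. All 5 windows held the ISRE-type motif, which is in 3.44% of 32851 RefSeq windows of the same length. The GAS-type motif was in 4 of the 5, all but Irgm1, against 8.3% of windows. Irgm1 held 2 overlapping ISRE-type matches, which begin 30 and 24 bases before its start.

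In Tgtp1, Tgtp2, Igtp and Irgm2 the GAS-type motif began 11 bases before the ISRE-type motif, although the pair stood at different distances from the start. The ISRE-type motif began 77 bases before the start in Tgtp1, 70 in Tgtp2, 64 in Irgm2 and 34 in Igtp. Both motifs occurred anywhere in 149 windows (0.454%), and at the 11-base step in 5 windows (0.0152%), which are these 4 and that of Gm12185, another IRG gene. The step was looked for after the windows of the members were seen, and the members are related copies, so the match is a description of sequence and not evidence of binding.

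**Figure D1:**
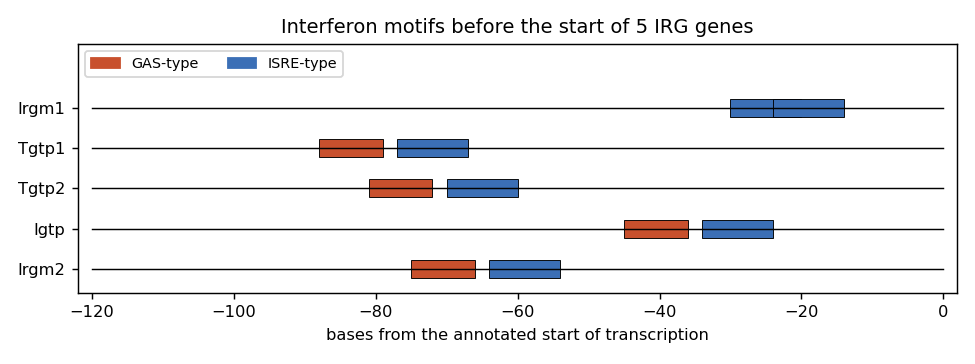
Positions of GAS-type (orange) and ISRE-type (blue) motif matches in the 120 bases before the annotated RefSeq start of 5 IRG genes. The x axis gives distance from that start in bases. The pair keeps its 11-base step in Tgtp1, Tgtp2, Igtp and Irgm2, and Irgm1 has overlapping ISRE-type matches without a GAS-type match.

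All 8 IRG genes were lower in AD1KO than in fl/fl, and the family sum went from 528 FPKM in fl/fl to 48.6 FPKM in AD1KO. This is a log2 ratio of -3.44, or 10.9-fold. With Tgtp1 and Tgtp2 summed, the median log2 ratio of the 7 measurements was -3.04, against -0.04 over all 15839 genes. A log2 ratio of -0.5 or lower was met by 7 of the 7, where 19.1% of all genes met it, and 0.5 or higher by none of them, where 14.3% of all genes met it. Under upper quartile scaling the balance of all genes turned, with 2609 lower and 2796 higher. Since the genes were chosen on this contrast, the counts are set beside the background without a reading. For each log2 ratio, 0.01 FPKM was added to both values and AD1KO was divided by fl/fl, so it compares 1 pooled library with another. In bulk tissue, fewer cells of a type and less RNA per cell cannot be told apart.

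Library sizes of 17630000 reads (fl/fl) and 17460000 reads (AD1KO) were estimated from the steps between the low FPKM values. Some 23986 reads fell on the 8 genes in fl/fl and 2187 in AD1KO, which is 0.135% and 0.0124% of the 17773189 and 17571487 reads summed over all genes. The 95% counting intervals were made on these reads by the exact Clopper-Pearson method, and they cover counting error only.

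**Figure D2:**
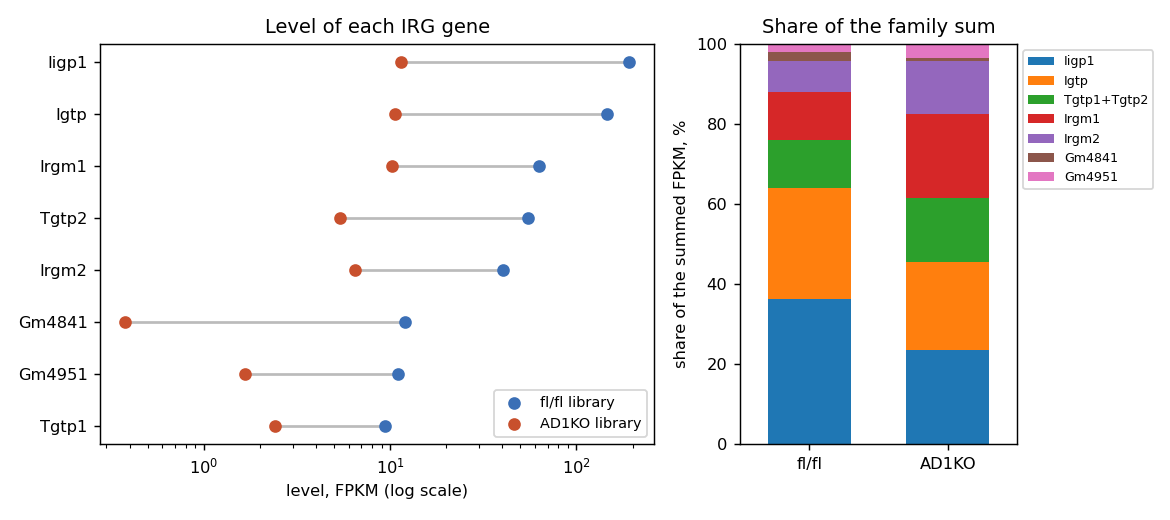
Left, level of each of the 8 IRG genes in FPKM on a log axis, with the fl/fl library in blue and the AD1KO library in orange; right, the share of each gene in the summed FPKM of the family in both libraries, in percent. Every orange point lies left of its blue point, and the share of Iigp1 is 36.3% in fl/fl and 23.6% in AD1KO.

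Among the regulators, Irgm1, which is needed for the survival of mice under many intracellular infections, was at 63.2 FPKM in fl/fl and 10.2 FPKM in AD1KO. Its log2 ratio was -2.63 (interval -2.80 to -2.47), from about 2292 and 366 reads. Irgm2, a regulator found on the Golgi, was at 40.2 and 6.45 FPKM, which gives a log2 ratio of -2.64 (interval -2.80 to -2.49). These values put Irgm1 and Irgm2 within 0.01 of each other on the log2 scale, less than the width of either interval. Igtp, also called Irgm3 and found on the endoplasmic reticulum, was the most abundant regulator at 146 FPKM in fl/fl, and was at 10.6 FPKM in AD1KO. Its log2 ratio of -3.78 (interval -3.93 to -3.62) lay below those of Irgm1 and Irgm2, with no overlap of intervals. In AD1KO the levels of Irgm1 and Igtp were 10.2 and 10.6 FPKM, whereas in fl/fl they were 63.2 and 146 FPKM. Summed, the 3 regulators were at 249 FPKM in fl/fl and 27.3 FPKM in AD1KO, a log2 ratio of -3.19.

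Among the effectors, Iigp1, also called Irga6 and the best studied GKS protein at the vacuole of Toxoplasma, was the most abundant of the 8 genes in both libraries. It was at 192 FPKM in fl/fl, rank 456 of the genes in the table, and at 11.5 FPKM in AD1KO, rank 5135. Its log2 ratio was -4.06 (interval -4.19 to -3.94), from about 9998 and 592 reads. Gm4841 had the lowest ratio, with 12 FPKM in fl/fl and 0.38 FPKM in AD1KO. Its log2 ratio of -4.94 rests on about 576 and 18 reads, so its interval is wide (-5.75 to -4.31). It also depends on the added constant, and with 1 FPKM added it was -3.24. Gm4951, whose coding sequence is closest to that of Iigp1, was at 11.05 and 1.67 FPKM, which gives a log2 ratio of -2.72 (interval -3.06 to -2.42). The 5 effectors together were at 279 FPKM in fl/fl and 21.4 FPKM in AD1KO, a log2 ratio of -3.71.

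Tgtp1 and Tgtp2, which encode Irgb6, an effector that marks the vacuole early, were at 64.2 FPKM together in fl/fl and 7.82 FPKM in AD1KO. Their summed log2 ratio was -3.04 (interval -3.20 to -2.88). Taken alone, Tgtp2 was at 54.8 and 5.41 FPKM (log2 ratio -3.34) and Tgtp1 at 9.38 and 2.41 FPKM (log2 ratio -1.96). Tgtp1 made up 14.6% of the pair in fl/fl and 30.8% in AD1KO. That split is uncertain, since their coding sequences differ at 4 of 1248 bases and 91.4% of all 50-base stretches of Tgtp1 transcripts also occur in another gene. How reads that match both copies were assigned is not given in the sources used here.

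**Figure D3:**
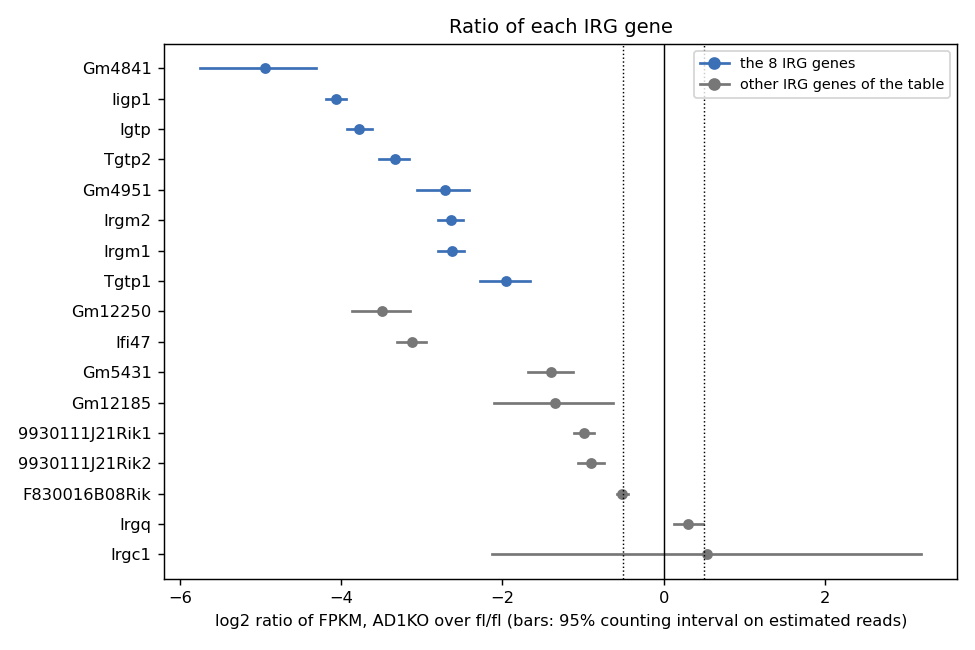
Log2 ratio of FPKM, AD1KO over fl/fl, for the 8 IRG genes (blue) and the 9 other IRG genes of the table (grey), with 95% counting intervals on estimated reads as bars and dotted lines at -0.5 and 0.5. All 8 blue intervals lie below -0.5, while the grey points run from -3.49 for Gm12250 to 0.54 for Irgc1.

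In order of ratio, from the lowest, the family ran Gm4841, Iigp1, Igtp, the Tgtp pair, Gm4951, Irgm2 and Irgm1. Intervals of neighbours did not overlap between Gm4841 and Iigp1, between Iigp1 and Igtp, or between Igtp and the Tgtp pair. They overlapped from the Tgtp pair onward, so the order of Gm4951, Irgm2 and Irgm1 was not resolved at this depth. The first place of Gm4841 depended on the added constant: with 1 FPKM added its ratio (-3.24) was above those of Iigp1 (-3.95) and Igtp (-3.66). The makeup of the family differed between the libraries accordingly. Iigp1 and Igtp gave 36.3% and 27.6% of the family sum in fl/fl and 23.6% and 21.9% in AD1KO. Irgm1 gave 11.96% and 20.97%, Irgm2 7.61% and 13.3%, and Gm4841 2.27% and 0.781%. The regulators as a class were 47.1% of the sum in fl/fl and 56.1% in AD1KO. Iigp1 was the largest part of the effector sum, and by single gene the classes interleaved. The regulator Igtp had a lower ratio than the effectors Gm4951 and the Tgtp pair.

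**Figure D4:**
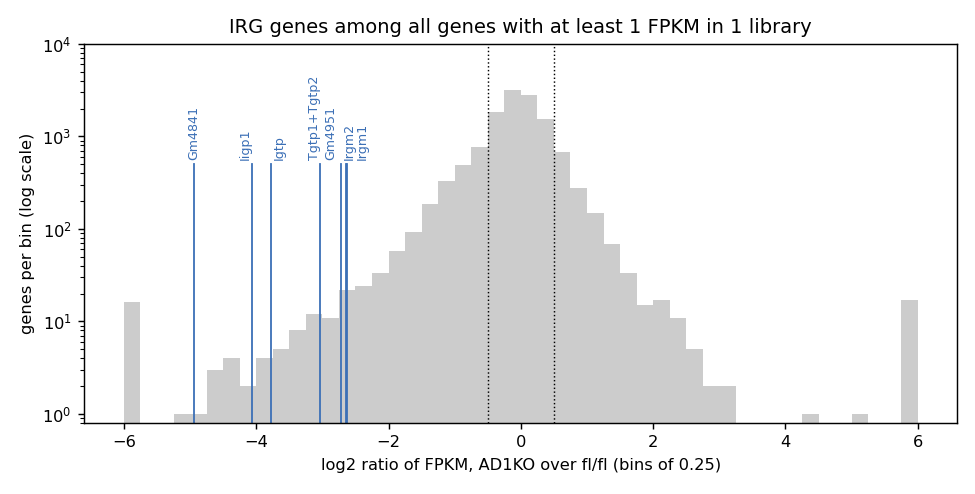
Number of genes per bin of 0.25 in log2 ratio, AD1KO over fl/fl, on a log axis, for the 12706 genes with at least 1 FPKM in 1 library; ratios beyond 6 in either direction are in the end bins, and blue lines mark the IRG genes, with Tgtp1 and Tgtp2 summed. The lines lie between -4.94 (Gm4841) and -2.63 (Irgm1), all left of the dotted line at -0.5.

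Of 12706 genes with at least 1 FPKM in 1 library, 17 had a ratio below that of Gm4841, 26 below Iigp1, 30 below Igtp and 75 below Irgm1. The end bin, below -5.75, held 16 genes. These counts were made with 0.01 FPKM added, and with 1 FPKM added the ratio of Gm4841 was -3.24. The 5 genes outside the family with at least 10 FPKM in fl/fl and a ratio nearest the family median were Batf2, an unnamed transcript of the authors' annotation (BGI_novel_G000460), Gbp6, Fcgr4 and Slamf8. Batf2, a leucine zipper factor, had 10.3 and 1.25 FPKM (log2 ratio -3.04). Fcgr4, an activating Fc receptor of macrophages and neutrophils, had a log2 ratio of -3.21, and Slamf8, a receptor of myeloid cells, -2.84. This likeness is of 1 ratio between 2 libraries.

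The family lies in 3 clusters of mm9. Irgm1 (chr11:48675470-48685185), Tgtp1 (chr11:48798829-48807674) and Tgtp2 (chr11:48870696-48877708), all on the minus strand, lie within 235 kb with 6 other IRG genes. Igtp (chr11:58013058-58021093) and Irgm2 (chr11:58028530-58036282), on the plus strand, are neighbours. Gm4951 (chr18:60371734-60407474), Gm4841 (chr18:60427959-60432926, minus strand) and Iigp1 (chr18:60535683-60552281) lie within 181 kb. The 5 genes on chromosome 11 summed to 313 and 35.1 FPKM, a log2 ratio of -3.16, and the 3 on chromosome 18 to 215 and 13.5 FPKM, a log2 ratio of -3.99. Iigp1 alone gave 192 and 11.5 FPKM of the chromosome 18 sums.

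Coding sequences were most alike for Tgtp1 and Tgtp2 (99.7% of aligned positions), then Iigp1 and Gm4951 (86.1%) and Irgm2 and Igtp (67.2%). Iigp1 and Gm4951 had ratios 1.34 apart on the log2 scale, and Irgm2 and Igtp 1.14 apart, both with intervals that did not overlap. Stretches of 50 bases shared with other genes made up 10.1% of Igtp, 9.18% of Gm4841, 4.9% of Irgm2, 4.04% of Gm4951, 2.93% of Iigp1 and 0% of Irgm1. Irgm1 shared the least of the 8. In the annotation, Tgtp1 overlaps Gm12185 and Olfr56, Tgtp2 overlaps Olfr56, and Gm4951 overlaps Gm5970, and whether counting used strand is not given in the sources used here.

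The table held 9 further IRG genes, of which 7 were lower by 0.5 and 1 higher, with a median log2 ratio of -0.99. Of all genes, 19.1% were lower and 14.3% higher. Under each of the 3 other scalings 6 of these IRG genes were lower, and with 1 FPKM added 5 were. Ifi47, the effector also called Irgd, was at 85.1 and 9.75 FPKM (log2 ratio -3.12). Gm12250, also called Irgb10 and annotated as a pseudogene in this GENCODE release, was at 18.0 and 1.59 FPKM (log2 ratio -3.49). These 2 genes lay within the range of the 8. Gm5431 (-1.40), Gm12185 (-1.34), 9930111J21Rik1 (-0.99) and 9930111J21Rik2 (-0.90) had smaller differences, although they lie in the same cluster as Irgm1 and the Tgtp pair. F830016B08Rik, beside Iigp1, went from 21.96 to 15.4 FPKM, a log2 ratio of -0.51 whose interval (-0.58 to -0.45) spans the threshold. Its estimated 4489 reads in fl/fl make it a well measured neighbour of the lowest members. Irgq, a divergent family member thought to lack GTPase activity, was at 4.35 and 5.39 FPKM (log2 ratio 0.31). Irgc1, a gene known from testis, had 0.1 and 0.15 FPKM (3 and 4 estimated reads), and its ratio of 0.54 has an interval from -2.13 to 3.20.

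The interferon-gamma pathway list of 25 genes was chosen by function, with earlier results of these data known. In it, 18 genes were lower by 0.5 and none higher, where 19.1% of all genes were lower and 14.3% higher. The median log2 ratio of the list was -1.23. The ligand Ifng was at 2.12 FPKM in fl/fl and 0.21 FPKM in AD1KO, about 41 and 4 reads, giving a log2 ratio of -3.28 (interval -5.29 to -1.88). Both receptor chains and the kinases were not past the threshold, with log2 ratios of -0.12 for Ifngr1, -0.41 for Ifngr2, -0.13 for Jak1 and -0.49 for Jak2. The intervals of Ifngr2 (-0.51 to -0.31) and Jak2 (-0.67 to -0.31) span the threshold. All 6 regulators of transcription in the list (Stat2, Irf1, Irf8, Irf9, Nlrc5 and Ciita) were lower. Irf1 was at 74.7 and 20.1 FPKM (log2 ratio -1.90). The ratios of all 7 IRG measurements, which were chosen on this contrast, lay below that of Irf1. Of 5 inhibitors, 3 were lower, among them Socs1, which blocks the kinases, at 11.7 and 2.45 FPKM (log2 ratio -2.25). Of 9 genes that induce Ifng or act in the cells that make it, 8 had a log2 ratio of -0.5 or lower, some on few reads. Il12a and Il12b, the subunits of interleukin-12, had about 3 and 2 reads (interval -4.15 to 2.56) and 23 and 7 reads (interval -3.17 to -0.43), so both intervals span the threshold. Il12rb2, a chain of its receptor, had about 13 and 6 reads (interval -2.78 to 0.39). Il18 was at 10.4 and 8.40 FPKM (log2 ratio -0.31).

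Guanylate-binding proteins, another GTPase family that interferon-gamma induces, were lower in 10 of 10 cases, where 19.1% of all genes were lower. Their log2 ratios ran from -4.09 to -1.16 with a median of -2.58, against -4.94 to -1.96 for the 8 IRG genes. Gbp2 was at 225 and 38.0 FPKM (log2 ratio -2.57). All 14 targets of type I interferon, such as Isg15 (log2 ratio -1.15) and Mx1 (-1.15), were lower, with log2 ratios between -1.38 and -0.52. Every IRG gene of the 8 had a lower ratio than any of these 14, but the 8 were chosen on this contrast, so that order carries no reading. The 9 other IRG genes ran from -3.49 to 0.54, across the range of the 14.

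IRG proteins are directed to membranes by the machinery that attaches ATG8 proteins to lipids. None of its 10 genes was past 0.5 in either direction, where 19.1% of all genes were lower and 14.3% higher. Log2 ratios were -0.02 for Atg5, 0.03 for Atg7 and -0.08 for Atg16l1, with a median of 0.03. The range was from -0.273 for Gabarap (interval -0.314 to -0.231) to 0.365 for Map1lc3a (interval 0.297 to 0.433). Of 5 genes that act in the clearance of marked vacuoles, 1 was lower, a share near the 19.1% of all genes. It was Trim21, a ubiquitin ligase (5.94 and 3.37 FPKM, log2 ratio -0.82). Sqstm1, an autophagy receptor, was at 276 and 300 FPKM (log2 ratio 0.12).

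**Figure D5:**
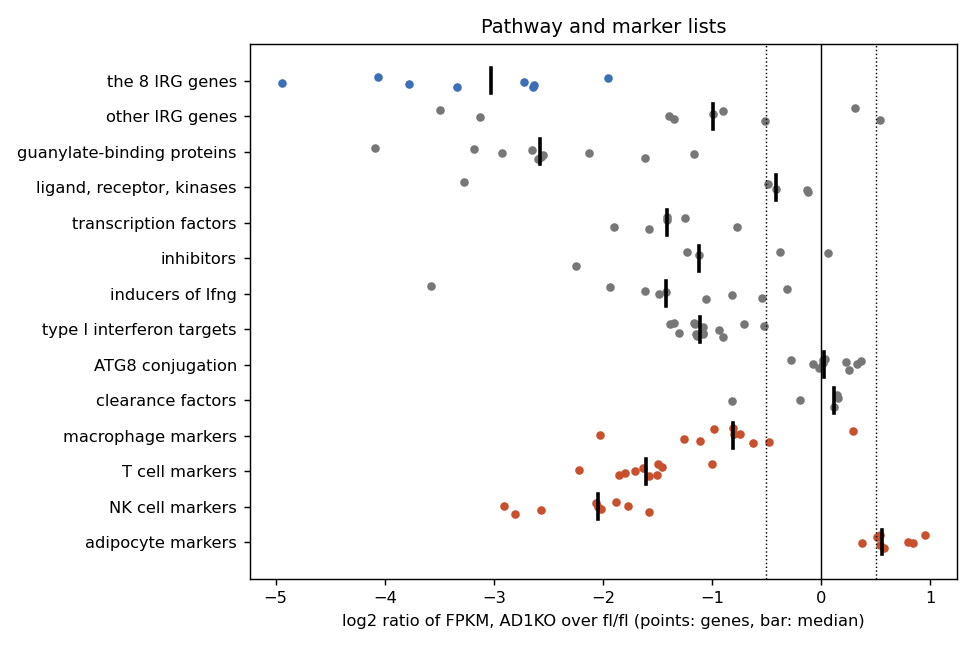
Log2 ratio of FPKM, AD1KO over fl/fl, of each gene (points) and the median (bar), with dotted lines at -0.5 and 0.5. The 8 IRG genes are in blue, pathway lists in grey and markers of macrophages, T cells, NK cells and adipocytes in orange. Other marker lists are not drawn, among them reproductive tract epithelium (median -2.30). The median is -3.03 for the 8 IRG genes, -2.58 for guanylate-binding proteins, -2.04 for NK cell markers, -0.80 for macrophage markers, 0.03 for ATG8 conjugation genes and 0.56 for adipocyte markers.

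Most markers of macrophages, T cells and NK cells were also lower in AD1KO, and some had ratios within the range of the IRG genes. Among these were the NK cell receptors Ncr1 (-2.91, about 39 and 5 reads) and Klrb1c (-2.81, about 59 and 8 reads). Both rest on few reads, with wide intervals (-4.65 to -1.605 and -4.15 to -1.80). Macrophage markers were lower in 8 of 10 cases (median -0.80), and their sum was 3451 FPKM in fl/fl and 1721 FPKM in AD1KO. T cell markers were lower in 10 of 10 (109 and 37.4 FPKM), NK cell markers in 9 of 9 (58.5 and 14.25 FPKM), B cell markers in 4 of 7 (92.8 and 62.0 FPKM) and dendritic cell markers in 5 of 7 with 1 higher (69.1 and 31.6 FPKM). Neutrophil markers were split, 3 lower and 3 higher of 7 tested (44.4 and 64.6 FPKM), with Mpo listed at 0 in fl/fl. Most of that sum was S100a8 (32.7 and 57.3 FPKM), and by summed reads the list was lower (interval -0.378 to -0.025). Of the genes counted, Ngp (about 1 and 5 reads), Elane (7 and 15) and Cxcr2 (16 and 9) had intervals that span 0. Adipocyte markers were higher in 7 of 8 cases (16610 and 25360 FPKM), among them Adipoq at 1911 and 3318 FPKM. Mesothelial markers were higher in 5 of 5 (74.3 and 139.5 FPKM), and endothelial markers in 1 of 7 (80.6 and 96.2 FPKM). Stromal progenitor markers were lower in 2 of 7 and higher in 1 (1538 and 1420 FPKM). The stromal shares and the share of higher endothelial markers are near those of all genes, of which 19.1% were lower and 14.3% higher. No endothelial marker was lower, and all 7 had log2 ratios above 0 (median 0.32). Markers of reproductive tract epithelium, a tissue next to gWAT in females, were lower in 4 of 6 cases (13.7 and 7.68 FPKM). Among these, Ovgp1 (log2 ratio -4.29, about 149 and 7 reads) and Wfdc2 (-3.19, about 38 and 4 reads) were within the range of the IRG genes. Pax8 was listed at 0 in AD1KO, against about 11 reads in fl/fl. Krt8, with about 158 and 189 reads, had a log2 ratio of 0.27. The 8 IRG genes were chosen on this contrast, so their sum (log2 ratio -3.44) is set beside the marker lists without a reading. The 9 other IRG genes summed to a log2 ratio of -1.59. By sum the lowest marker list was NK cells (-2.04), and by median it was reproductive tract epithelium (-2.30). That median falls between the ratios of Wfdc2 and Cdh1 (about 18 and 6 reads), both on few reads. The part of these cell types in the IRG values was not tested.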

How the data were processed

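Members and lists were chosen with earlier results of these data known. mRNA of gWAT was sequenced by BGI from 1 pool of 4 animals per group, and clean reads were aligned to mm9; the aligner and quantifier are not given in the sources used here. The authors deposited FPKM per gene (unit inferred from values), with 0 written as 0.01, beside their own fold change, P-value and FDR, which were not used. The 0.01 values were set to 0. Named were the 8 members, other IRG genes, genes needed for a role from each list, Dnmt1 and the 5 nearest genes by ratio. Depth and a length correction of 116 bases were fitted so that low values were nearest to whole reads: 80.3% of 493 values in fl/fl and 79.1% of 492 in AD1KO lay within 0.15 of one. These reads served for the exact 95% intervals, the read counts and the shares of reads, and not for the log2 ratios. A gene of the pathway lists is not reported here. Steps were tested on simulated data. A threshold of 0.5 follows the study's methods. No test was made; other pseudocounts, filters, scalings and a threshold of 1 were tried. RRBS libraries (2 samples) were not used here. Python 3.11.15, NumPy 2.4.6, pandas 2.3.3, SciPy 1.17.1, Biopython 1.88 and Matplotlib 3.10.9 were used. Positions are from GENCODE on mm9 and promoters from RefSeq.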

Additional observations from a re-analysis of the deposited data

How the results depend on the processing

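No paired analysis was possible because each group is 1 pooled library, and for the same reason no replicate could be left out. Every IRG gene stayed lower by at least 0.5 under each pseudocount, filter and scaling tried. At a threshold of 1, and where the whole counting interval had to pass, 7 of 7 stayed lower. The interval rule was not counted over all genes. Over 40 values of single members under 5 alternatives of pseudocount and scaling, 35 moved by less than the half-width of their counting interval; the other 5, all with 1 FPKM added, were Irgm2 (-2.47), Tgtp1 (-1.61), Tgtp2 (-3.12), Gm4841 (-3.24) and Gm4951 (-2.17), and none changed sign. Upper quartile scaling moved the family sum to -3.35. With 1 FPKM added, 1661 of all genes were lower and 965 higher, the median of the other IRG genes was -0.79 and that of the interferon-gamma pathway -0.72. With at least 1 FPKM required, 1281 genes were higher. At a threshold of 1, 1417 of 15839 genes were lower and 910 higher, and 4 of the other IRG genes were lower. Low-level members such as Gm4841 are limited by about 18 reads in AD1KO.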

Other observations

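Genes outside the IRG family can be grouped by the same promoter motifs, a grouping chosen after the members' windows were seen. Of 11889 tested genes outside the family with a RefSeq window, 17.7% were lower in AD1KO by 0.5 and the median log2 ratio was -0.04. With the GAS-type motif it was 21.3% of 992 genes (median -0.06), and with the ISRE-type motif 32.1% of 458 (median -0.19). With both motifs, 26 of 53 genes were lower (49.1%) and 3 higher, with a median of -0.48. These are shares of genes within 1 pair of libraries, without a test, and a gene with both motifs is counted under each. No tested gene outside the family had the motifs at the 11-base step found in Tgtp1, Tgtp2, Igtp and Irgm2.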
